A study of Caenorhabditis elegans with 60 samples.

Results

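H3K9me3 was compared between 2 double mutants of Caenorhabditis elegans, lin-61 met-2 and met-2 nrde-3, in early embryos collected before the bean stage. The 24 records of these strains were chosen by strain label from the 60 records of the series. Each library was sequenced in 2 runs, so the 24 records make up 12 of the 30 libraries. By label these are an input and an H3K9me3 library for each of 3 preparations per strain. The lin-61 met-2 animals carried met-2(n4256) on chromosome III and lin-61(tm2649) on I. The met-2 nrde-3 animals carried met-2(n4256) on III and nrde-3(tm1116) on X. Both strains therefore shared the met-2 mutation and differed in the second allele. The other strains of the series were the single mutants lin-61(tm2649) and nrde-3(tm1116) and the wild-type strain N2 (Bristol), which are used below as points of reference. The series title names the question, which is whether the enzyme that makes H3K9me3 is brought to chromatin along parallel routes that need NRDE-3 or LIN-61. A preparation is chromatin of pooled whole embryos with all their cell types, so a change in fewer cells and a smaller change in all cells cannot be told apart.

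H3K9me3 is trimethylation of lysine 9 on histone H3, a mark of silent heterochromatin that in this worm covers repeats, transposons and silenced genes, mostly on the outer parts of the autosomes. MET-2 is a histone methyltransferase that places lower methyl states on the same lysine. LIN-61 is a protein with MBT domains, which bind methylated histone tails, and NRDE-3 is an Argonaute protein that carries small interfering RNAs into the nuclei of somatic cells. Both double mutants therefore lack MET-2, and each lacks 1 of the 2 named proteins and keeps the gene of the other intact by label.

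The strains came from different library series, 2080 for lin-61 met-2 and 2236 for met-2 nrde-3, so strain and series cannot be told apart in any value below. The H3K9me3 libraries held 22265768 to 43856170 counts in lin-61 met-2 against 45137188 to 58771814 in met-2 nrde-3, and the inputs 47696792 to 50281492 in lin-61 met-2 against 47874152 to 53336630 in met-2 nrde-3. The median H3K9me3 count of a tested window was 104 to 205 in lin-61 met-2 against 161 to 223 in met-2 nrde-3. Of the 200579 windows of the table, 185136 were tested, namely those with at least 20 counts in every input and with input levels within 1.5 times of each other between strains. The tested windows held 96.6% to 96.7% of the H3K9me3 counts of lin-61 met-2 but 80.9% to 84.3% of those of met-2 nrde-3. The inputs differed in the same direction, at 97.1% to 97.2% in lin-61 met-2 against 87.8% to 88.1% in met-2 nrde-3. The lin-61 inputs, also of series 2080, were at 96.8%. More of the met-2 nrde-3 counts thus lie outside the windows described below, in the inputs as well as in the H3K9me3 libraries. The labels contradict themselves on the antibody, which is against LEM-2 in the extraction protocol while the titles name H3K9me3, and on the number of biological replicates.

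Missing stretches of DNA checked the labels. At III 8376067-8377566, on the chromosome of met-2(n4256), depth relative to the other strains was 0.062 to 0.080 in the inputs and 0.079 to 0.265 in the H3K9me3 libraries of lin-61 met-2. The H3K9me3 libraries of met-2 nrde-3 were nearly empty there too, at 0.098 to 0.115. The libraries labelled met-2 nrde-3 input were not, at 1.08 to 1.12, whereas nrde-3 inputs, by label, were at 0.063 to 0.068. A gap at V 18443897-18458896 crossed in the same way, where depth was 0.894 to 1.38 in the met-2 nrde-3 H3K9me3 libraries against 0.007 to 0.048 in the inputs of that label. At X 371736-372235, on the chromosome of nrde-3(tm1116), the H3K9me3 libraries of lin-61 met-2 stood at 0.963 to 1.43 and those of met-2 nrde-3 at 0.210 to 0.343. The H3K9me3 libraries of both double mutants thus matched their labels at the gaps on III and X, whereas the nrde-3 and met-2 nrde-3 inputs, by label, crossed on III and V. No window checked the lin-61 allele apart from the library series. The values below use the inputs as labelled, and the main ones are repeated with the libraries labelled nrde-3 input in place of the inputs labelled met-2 nrde-3.

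The strongest windows of lin-61 met-2 were less enriched than those of met-2 nrde-3. The level of a window is the log2 ratio of scaled H3K9me3 over scaled input in a preparation, with 8 counts added to each. After scaling, the median tested window stood at -0.014 to -0.008 in every preparation. In what follows, the input level therefore means the level of a typical window and not absence of the mark. The 99th percentile of the level over all tested windows was 1.81, 1.55 and 1.80 in lin-61 met-2 replicates 1 to 3 and 2.73, 2.46 and 3.04 in met-2 nrde-3. Windows at a level of 3 or more numbered 57, 6 and 72 in lin-61 met-2, against 1285, 827 and 1947 in met-2 nrde-3. The groups did not overlap in either measure, and in an exact permutation test, two-sided, p was 0.1 for both, the smallest value that 3 against 3 preparations allow (0.138 after Benjamini-Hochberg adjustment over 11 measures of spread).

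The lower end of the distribution differed in the opposite sense. The 1st percentile was -1.77, -1.08 and -1.06 in lin-61 met-2 against -0.67, -0.54 and -0.65 in met-2 nrde-3, so windows depleted of H3K9me3 reached lower in lin-61 met-2. The SD of the level over windows was 0.581 ± 0.099 in lin-61 met-2 against 0.587 ± 0.069 in met-2 nrde-3 (SD over preparations, n = 3 each; exact permutation p = 0.9), although the tails differed. Thinning the H3K9me3 libraries, and the inputs, to equal totals, an alternative chosen after seeing the data, left the 99th percentiles at 1.80, 1.53 and 1.79 in lin-61 met-2 against 2.71, 2.43 and 3.03 in met-2 nrde-3. Because the series differ in this contrast, ranks of windows within each preparation were compared beside the levels.

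**Figure D1:**
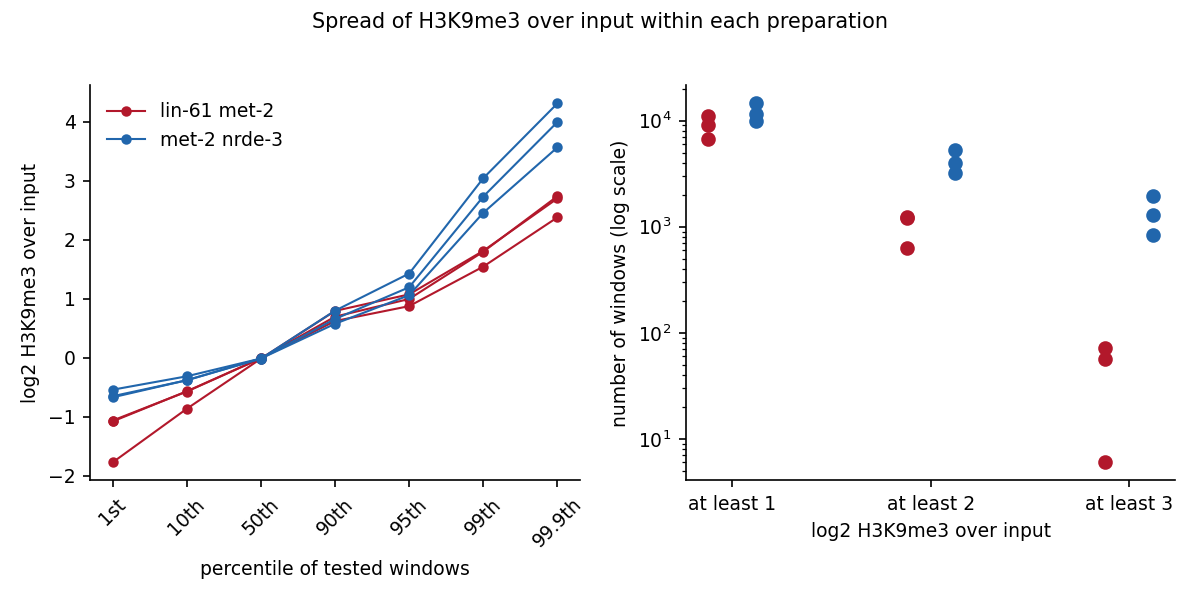
Left, the log2 level of H3K9me3 over input at given percentiles of the 185136 tested windows, with 1 line per preparation. Right, the number of windows at or above 3 levels on a log axis, with 1 point per preparation; at a level of at least 3 the lin-61 met-2 preparations hold 6 to 72 windows and the met-2 nrde-3 preparations 827 to 1947.

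Most windows that differed were lower in lin-61 met-2. By edgeR's quasi-likelihood test on counts, 13942 windows were called at an adjusted p under 0.05, or 7.53% of those tested. H3K9me3 was lower in lin-61 met-2 in 11277 of them (6.09% of tested windows, median log2 change -0.99) and higher in 2665 (1.44%, median 0.76). Over the lower windows the median level was 0.22 in lin-61 met-2 against 1.24 in met-2 nrde-3. Over the higher windows it was 0.70 in lin-61 met-2 against -0.06 in met-2 nrde-3, that is, near the level of a typical window in the second strain. Of the 2665 higher windows, 82.1% reached a level of 0.5 in lin-61 met-2 against 3.8% in met-2 nrde-3. Of the 11277 lower windows, 71.6% reached it in met-2 nrde-3 against 38.7% in lin-61 met-2. The sets were called on the same libraries, and their medians in the stronger strain differ, at 0.70 for higher and 1.24 for lower windows. These shares therefore do not show that either strain keeps more of the mark.

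The balance of the calls depended on the scaling, and their number on single preparations. Higher windows made up 19.1% of calls with TMM factors, where the median log2 change of all windows was -0.051. With library totals alone they made up 58.3%, the median was 0.134, and 9.94% of windows were called, 5.8% higher and 4.15% lower. The count of calls was 5932, 8687 and 6396 without met-2 nrde-3 replicate 1, 2 or 3, with 541, 697 and 753 higher and 5391, 7990 and 5643 lower. Without lin-61 met-2 replicate 1, 4187 windows were higher.

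Ranks within preparations, tested by limma on normal scores, gave 8992 calls at an adjusted p under 0.05 (4.86% of tested windows), with 3073 higher (1.66%) and 5919 lower (3.2%) in lin-61 met-2. Higher windows thus made up 34.2% of the calls by ranks. Both tests called 1954 windows higher, which is 73.3% of the higher calls by edgeR and 63.6% of those by ranks. They called 5567 windows lower, 49.4% of the lower calls by edgeR and 94.1% of those by ranks. No window higher by edgeR was lower by ranks, and 61 windows lower by edgeR were higher by ranks. The rank count was 3662, 3187 and 3570 without met-2 nrde-3 replicate 1, 2 or 3.

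With the libraries labelled nrde-3 input in place of the inputs labelled met-2 nrde-3, edgeR called 12376 windows (6.68%), of which 9955 (5.38%) were lower and 2421 (1.31%) higher in lin-61 met-2. The exchange kept 9149 of the lower windows, 81.1% of those called with the inputs as labelled, and 1694 of the higher windows, 63.6%. By ranks it gave 9462 calls (5.11%), with 3533 higher (1.91%) and 5929 lower (3.2%). The library labelled nrde-3 input 1 stood apart from the other inputs, with correlations over windows of 0.256 to 0.316 against 0.535 to 0.691 among the rest. With nrde-3 inputs 2 and 3 alone, an alternative chosen after seeing the data, edgeR called 8523 windows (4.6%), 7558 lower (4.08%) and 965 higher (0.521%).

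Centres of the autosomes were lower in lin-61 met-2. Each chromosome was divided into a left arm, a centre and a right arm of 0.333 of its length each. The mean level in the autosome centres was 0.028, 0.026 and 0.043 in lin-61 met-2 replicates 1 to 3 and 0.269, 0.260 and 0.35 in met-2 nrde-3, a difference of -0.26 with no overlap (exact two-sided permutation p = 0.1, the smallest possible, 0.14 after adjustment over 28 regions). The mean percentile rank of the same windows was 51.85, 50.17 and 49.90 in lin-61 met-2, against 58.67, 59.99 and 60.64 in met-2 nrde-3. With the libraries labelled nrde-3 input the difference was -0.27 in level and -9.07 in rank. With library totals in place of TMM factors it was smaller, at -0.08 in level, and with quantile normalization -0.173. The centres of I, II, III, IV and V were each lower in lin-61 met-2 with no overlap between preparations, in level and in rank. Over all tested windows, 16.8% were lower and 9.23% higher in level with no overlap. In rank, the difference of the centres was largest in the centre of I at -12.56 and smallest in the centre of V at -4.42.

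The arms and X took opposite signs in level and in rank. The arms averaged -0.011 ± 0.052 in lin-61 met-2 against 0.046 ± 0.012 in met-2 nrde-3 in level (SD, n = 3 each), a difference of -0.057, whereas in percentile rank they averaged 48.90 ± 0.70 in lin-61 met-2 against 45.32 ± 0.70 in met-2 nrde-3, a difference of 3.59. X averaged 0.063 ± 0.015 in lin-61 met-2 against 0.068 ± 0.016 in met-2 nrde-3 in level, with overlapping preparations (exact permutation p = 0.6, n = 3 each). In rank X averaged 52.29 ± 0.42 in lin-61 met-2 against 48.68 ± 0.69 in met-2 nrde-3, with no overlap. Library totals and quantile normalization also turned the sign on the arms and X to higher in lin-61 met-2, so no direction can be given for the mean level there. The gap between autosome centres and arms was 3.75, 0.96 and 0.50 percentile points in lin-61 met-2 against 12.55, 15.03 and 15.78 in met-2 nrde-3. Of the 18 arms and centres, 13 were lower in lin-61 met-2 with no overlap and 0 higher in level, against 5 lower and 8 higher in rank. In lin-61 met-2 H3K9me3 was thus spread almost evenly between arms and centres by rank, while in met-2 nrde-3 the centres stood above the arms.

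**Figure D2:**
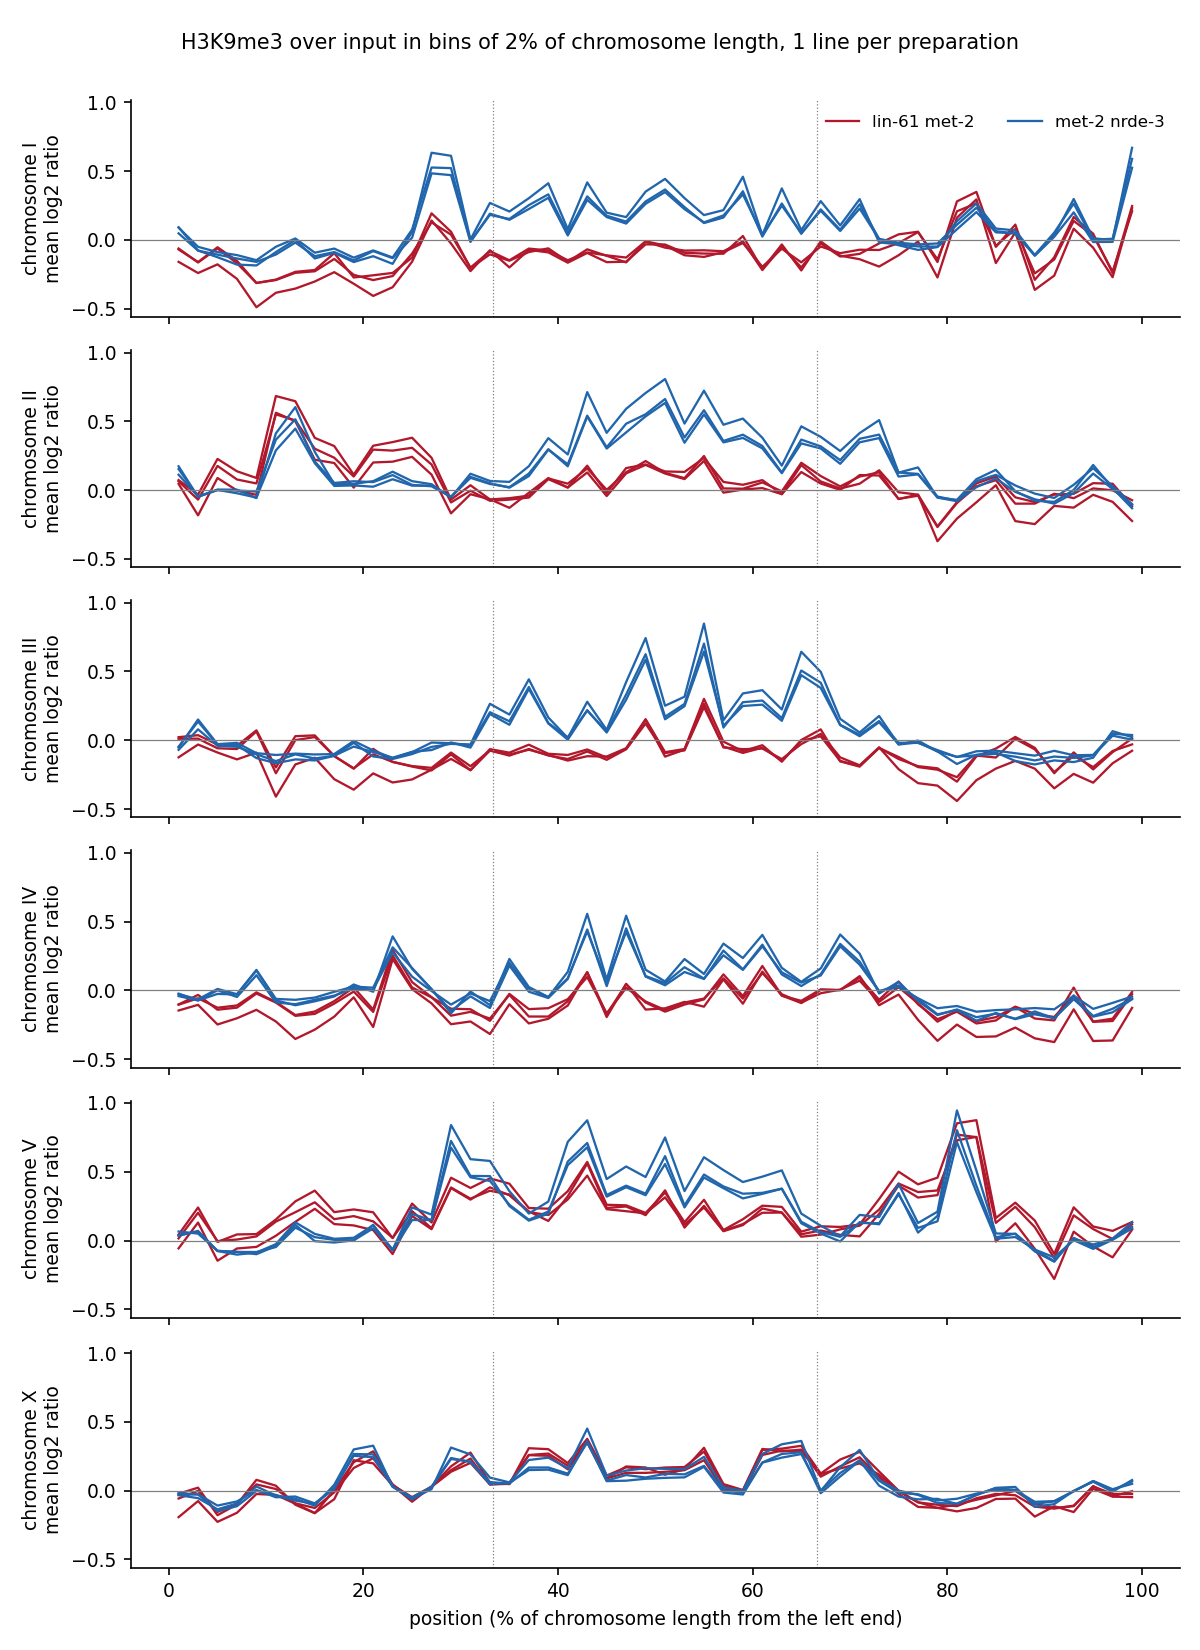
Mean log2 level of H3K9me3 over input in 50 bins of 2% of the length of each chromosome, from the left to the right end, with 1 line per preparation and dotted lines at the borders between arms and centre. In 185 of the 300 bins all lin-61 met-2 lines lie below all met-2 nrde-3 lines, mostly on I to IV, and in 35 bins, 17 of them on V, all lie above; by percentile rank, which is not plotted, 105 bins are lower and 123 higher with no overlap.

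The other strains place these ranks. In N2, taken from replicates 2 and 3 because replicate 1 goes against its labels, the mean percentile rank was 62.2 to 62.5 in the arms and 29.5 to 29.7 in the autosome centres. In the lin-61 single mutant the centres had a rank of 40.6 to 44.6, and in nrde-3 of 32.6 to 40.2. Centres therefore ranked higher in both double mutants than in any preparation of these 3 strains, at 49.9 to 51.9 in lin-61 met-2 against 58.7 to 60.6 in met-2 nrde-3. The order of the single mutants was the reverse of that of the double mutants, with lin-61 above nrde-3 in the centres and lin-61 met-2 below met-2 nrde-3. Each of these orders compares 1 strain of series 2080 with 1 of series 2236. Across all 185136 windows the rank difference of lin-61 minus nrde-3 correlated with that of lin-61 met-2 minus met-2 nrde-3 at r = 0.078. By label these differences have no library in common, but both set series 2080 against series 2236, and windows are not independent.

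Called windows followed the same map. By edgeR, 12.2% of centre windows were lower and 0.318% higher in lin-61 met-2, against 4.43% lower and 2.26% higher on the arms and 1.51% lower and 0.759% higher on X. The arms held 84.2% of all higher windows, and the centres 56.3% of all lower ones. By ranks, centres had 8.13% lower and 0.365% higher windows, the arms 1.58% and 2.5%, and X 0.247% and 1.19%. On the arms and X the excess of lower over higher calls by edgeR was thus an excess of higher calls by ranks. The arms differed among themselves: the left arm of II (5.02% higher, 2.21% lower) and the right arm of V (4.97% higher, 2.74% lower) had more higher than lower calls by edgeR. Every other autosome arm had more lower ones.

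**Figure D3:**
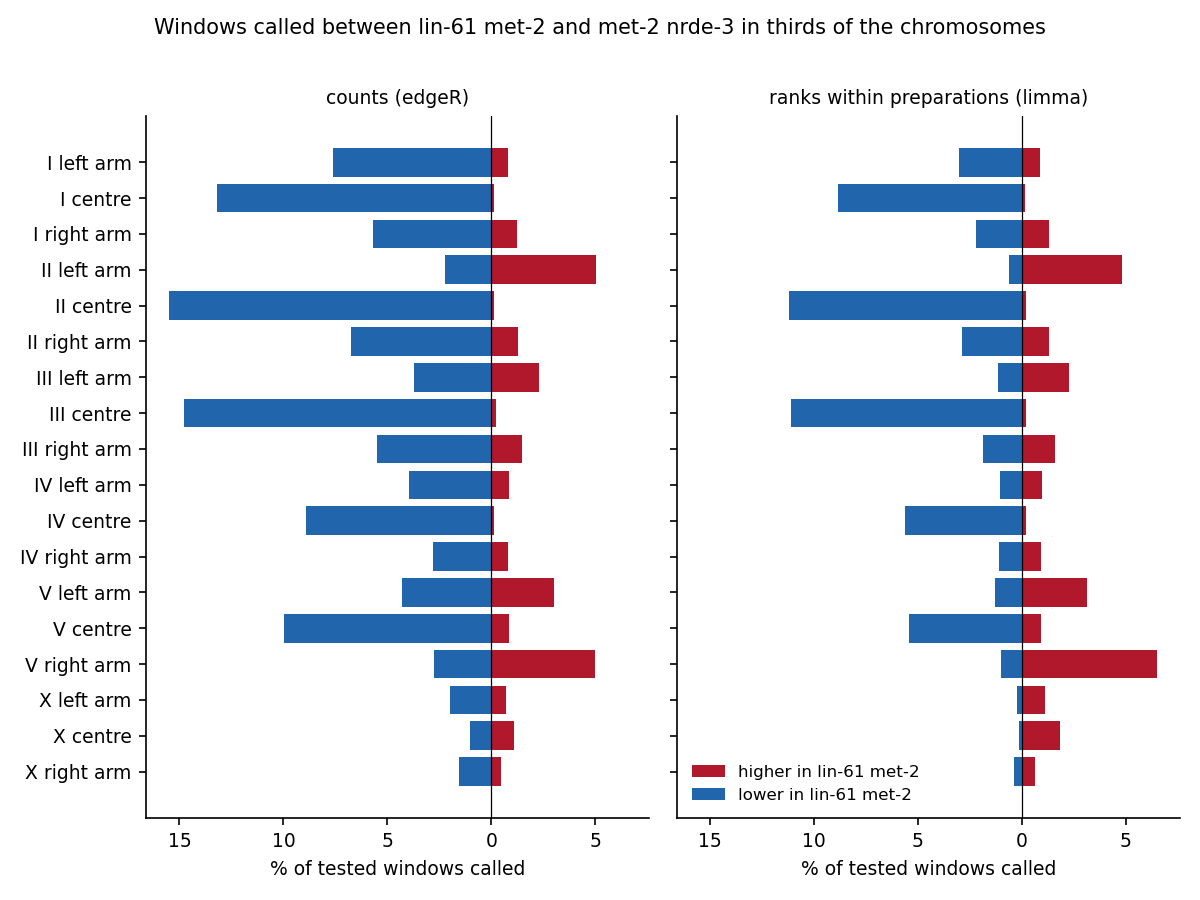
Share of tested windows called higher (right of 0) or lower (left of 0) in lin-61 met-2 than in met-2 nrde-3 for each of 18 chromosome segments, by edgeR on counts and by limma on ranks. Lower calls reach 15.5% in the centre of II by edgeR, and higher calls 6.49% in the right arm of V by ranks.

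Loci that were higher in lin-61 met-2 lay mostly in autosome arms, and most of them were near the input level in met-2 nrde-3. A locus was a run of called windows of the same direction, joined across at most 1 other window and with at least 3 called. Runs were kept only where the preparations of the strains did not overlap in mean level. Non-overlap and a median adjusted p under 0.05 by edgeR thus follow from the rule, here and for the lower loci. There were 126 higher loci, of which 60 lay on V, 35 on II, 21 on III, 6 on I, 3 on X and 1 on IV. They were short, with a median of 2000 bp, and 111 (88.1%) lay in autosome arms, which hold 53.7% of the tested windows. The level was at least 0.5 in lin-61 met-2 at 125 of them and in met-2 nrde-3 at 6. The loci were chosen by this difference in the same libraries, so this split follows in part from the choice. In N2, 69 of the 126 had a mean percentile rank over 90. By ranks, 114 of the 126 had a median adjusted p under 0.05 in limma, and with the libraries labelled nrde-3 input all 126 kept their sign and 99 passed by edgeR. Both repeats used the same H3K9me3 libraries on loci already chosen in these data, so neither is an independent test.

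The largest difference was at I 9168962-9171461, in the centre of I, where the level was 1.65, 1.49 and 1.52 in lin-61 met-2 against 0.12, 0.02 and 0.31 in met-2 nrde-3. The mean log2 change was 1.43 (median adjusted p = 0.000122, edgeR). Behind it stood 360.8, 542.4 and 644.2 H3K9me3 counts per window in lin-61 met-2, against 192.0, 243.4 and 222.8 in met-2 nrde-3. Its rank in N2 was 61.6, so this locus was not among the strong N2 windows. At II 1817506-1823505, in the left arm, the level was 1.35, 1.11 and 1.41 in lin-61 met-2 against 0.20, 0.10 and 0.22 in met-2 nrde-3 (mean change 1.15, median adjusted p = 0.000823, edgeR). This stretch had a mean rank of 98.4 in N2, 90.4 in lin-61 and 92.3 in nrde-3, so it ranked high in both single mutants.

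At I 2147992-2153491, in the left arm of I, the level was 0.96, 0.67 and 0.89 in lin-61 met-2 against -0.25, -0.31 and -0.26 in met-2 nrde-3. The change was 1.14 (median adjusted p = 0.000729, edgeR), and the mean percentile rank was 88.4 in lin-61 met-2 against 22.7 in met-2 nrde-3. Among the other strains its rank was 94.2 in N2, 82.7 in lin-61 and 57.6 in nrde-3. A similar order held at II 3300500-3307499, the longest of the named higher loci at 7000 bp, with levels of 0.82, 1.01 and 1.08 in lin-61 met-2 against 0.01, -0.23 and -0.06 in met-2 nrde-3. Its rank was 98.6 in N2, 94.6 in lin-61 and 74.7 in nrde-3.

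On III the loci kept high ranks in both single mutants. At III 2083094-2086593 the level was 1.20, 1.37 and 1.30 in lin-61 met-2 against 0.10, 0.08 and 0.39 in met-2 nrde-3, with ranks of 98.9 in N2, 99.7 in lin-61 and 98.7 in nrde-3. At III 2937091-2943090 it was 1.48, 1.38 and 1.69 in lin-61 met-2 against 0.47, 0.45 and 0.66 in met-2 nrde-3, so met-2 nrde-3 stayed above the input there. The remaining locus of III, 2035595-2038094, averaged 0.83 ± 0.07 in lin-61 met-2 against -0.14 ± 0.03 in met-2 nrde-3 (SD, n = 3 each). The preparations of the strains did not overlap at any of the 3 loci, which the rule for loci required.

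On V, 15588909-15590408 in the right arm averaged 1.27 ± 0.25 in lin-61 met-2 against 0.18 ± 0.10 in met-2 nrde-3, and 4001959-4004458 in the left arm 1.07 ± 0.22 in lin-61 met-2 against 0.10 ± 0.11 in met-2 nrde-3. At II 13477456-13479455 in the right arm of II the level was 0.80, 0.71 and 0.73 in lin-61 met-2 against -0.22, -0.23 and -0.42 in met-2 nrde-3. That locus had the largest difference in rank among the higher loci, at 89.5 in lin-61 met-2 against 18 in met-2 nrde-3, and its rank was 74.3 in lin-61 and 31.8 in nrde-3. The first locus of IV, at 7471812-7473311, and of X, at 13097181-13098680, changed by 0.77 and 0.72 (median adjusted p = 0.0182 and 0.0166, edgeR). Both had a rank under 50 in N2, at 42.3 and 40.5, and the locus on X did not pass with the libraries labelled nrde-3 input (median adjusted p = 0.0908, edgeR).

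**Figure D4:**
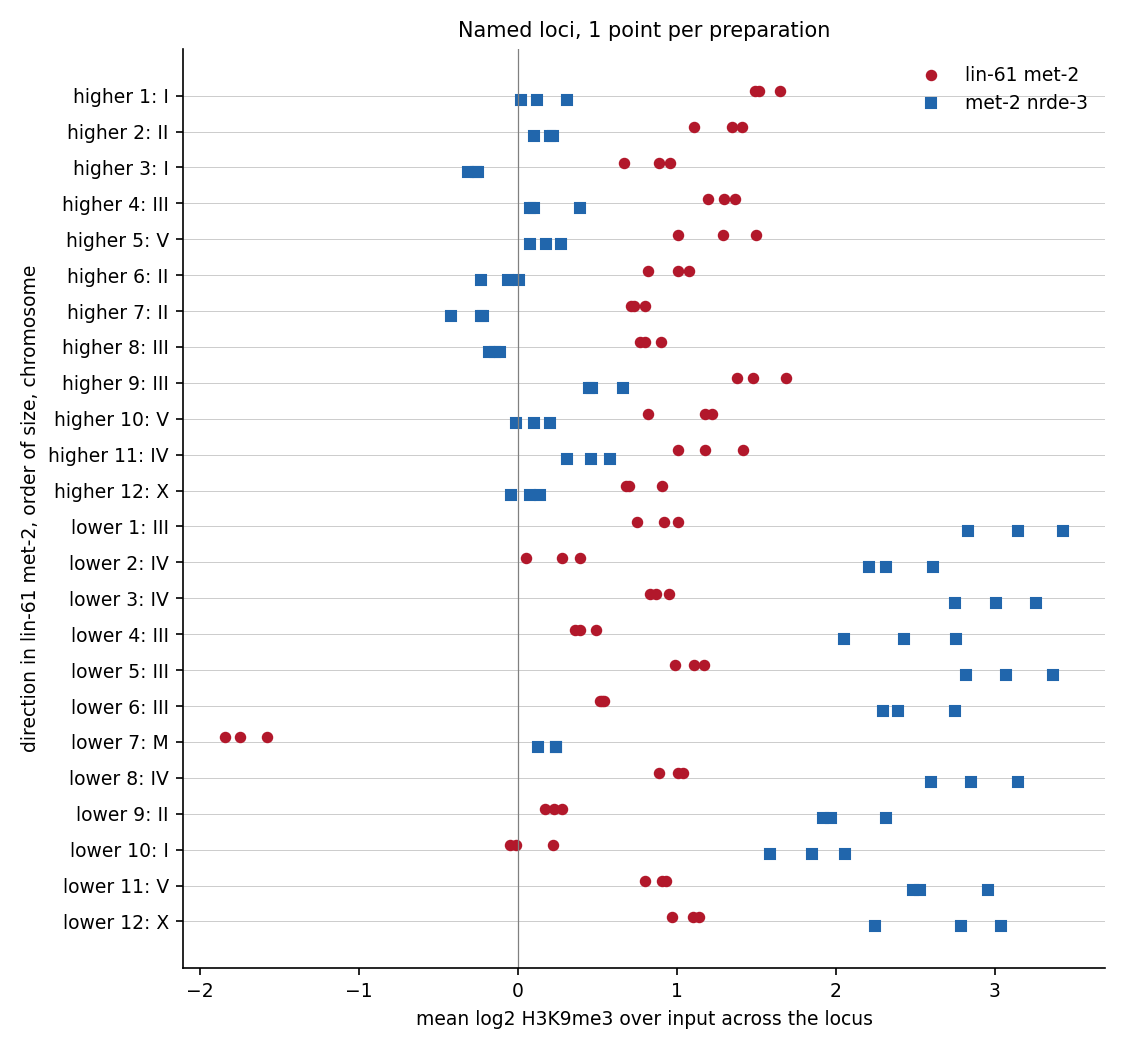
Mean log2 level of H3K9me3 over input across each of the 24 named loci, with 1 point per preparation, 12 loci that were higher in lin-61 met-2 above and 12 that were lower below. The preparations of the strains do not overlap at any of these loci, which the rule required; the lower loci other than the mitochondrial one lie at 1.59 to 3.43 in met-2 nrde-3.

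Loci that were lower in lin-61 met-2 were more numerous and longer. There were 824, with a median length of 3500 bp, and 490 of them (59.5%) lay in autosome centres, which hold 28.2% of the tested windows. By chromosome, 199 were on II, 168 on I, 164 on V, 148 on III, 107 on IV, 35 on X and 3 on mitochondrial DNA. The level was at least 0.5 in lin-61 met-2 at 387 of the 824 and in met-2 nrde-3 at 744. That split again follows in part from the choice of loci. In N2, 521 had a mean percentile rank under 50. By ranks 479 of them had a median adjusted p under 0.05 in limma. All kept their sign with the libraries labelled nrde-3 input and 761 passed by edgeR. As for the higher loci, these repeats are not independent tests.

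The largest difference was at III 6786074-6795073, in the centre of III. The level was 1.01, 0.75 and 0.92 in lin-61 met-2 against 3.15, 2.83 and 3.43 in met-2 nrde-3, a mean log2 change of -2.29 (median adjusted p = 1.58e-05, edgeR). Its windows held 217.3, 321.1 and 383.9 H3K9me3 counts each in lin-61 met-2, against 1519.2, 1642.5 and 2059.9 in met-2 nrde-3. The stretch was still enriched in lin-61 met-2, with a mean rank of 88.8, against 99.1 in met-2 nrde-3 and 61.1 in N2. Its neighbour III 6745074-6772573, 27500 bp long, had levels of 1.17, 0.99 and 1.11 in lin-61 met-2 against 3.07, 2.82 and 3.37 in met-2 nrde-3 (mean change -2.03, median adjusted p = 3.45e-05, edgeR).

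Other loci were likewise enriched in both strains. IV 11970793-11996292, 25500 bp long, stood at 0.87, 0.83 and 0.95 in lin-61 met-2 against 3.01, 2.75 and 3.26 in met-2 nrde-3, a change of -2.16. IV 5979319-6008817, at 29499 bp the longest of the named loci, averaged 0.98 ± 0.08 in lin-61 met-2 against 2.87 ± 0.27 in met-2 nrde-3 (SD, n = 3 each). V 12020925-12033424 averaged 0.88 ± 0.07 in lin-61 met-2 against 2.66 ± 0.26 in met-2 nrde-3. X 16380667-16388166, the first of X, averaged 1.07 ± 0.09 in lin-61 met-2 against 2.69 ± 0.40 in met-2 nrde-3. None of the 4 overlapped between the strains, which the rule for loci required.

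A further group had a mean level of 0.53 or less in lin-61 met-2. At I 5982976-5991475 the level was 0.22, -0.05 and -0.01 in lin-61 met-2 against 1.85, 1.59 and 2.06 in met-2 nrde-3, and the mean rank was 52.6 in lin-61 met-2, against 93.2 in met-2 nrde-3 and 34.6 in N2. At II 6549486-6561985, 12500 bp long, it was 0.28, 0.17 and 0.23 in lin-61 met-2 against 1.92, 1.97 and 2.32 in met-2 nrde-3, with a rank of 21.4 in N2. IV 7599812-7601311 averaged 0.24 ± 0.18 in lin-61 met-2 against 2.38 ± 0.21 in met-2 nrde-3 (SD, n = 3 each), and III 9335563-9344562 0.41 ± 0.06 in lin-61 met-2 against 2.41 ± 0.35 in met-2 nrde-3. At III 4434084-4436583, which ranked at 18.1 in N2, the level was 0.52, 0.53 and 0.54 in lin-61 met-2 against 2.39, 2.30 and 2.75 in met-2 nrde-3. In all of these the mark of met-2 nrde-3 lay where N2 ranked at 57.6 or lower.

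The named lower loci also included mitochondrial DNA, which has no nucleosomes. At M 1-1295 the level was -1.75, -1.58 and -1.84 in lin-61 met-2 against 0.13, 0.24 and 0.24 in met-2 nrde-3. Over all 25 mitochondrial windows the means were -1.32, -1.31 and -1.42 in lin-61 met-2 against 0.12, 0.22 and 0.21 in met-2 nrde-3, and 16 windows were called lower by edgeR. With the libraries labelled nrde-3 input, met-2 nrde-3 stood at 0.90, -0.20 and -0.55 and 3 windows were called. At M 1-1295 the mean percentile rank was 0.6 in lin-61 met-2 and 0.0 in the lin-61 single mutant, which is of the same library series. It was 72.1 in met-2 nrde-3, 29.7 in nrde-3 and 32.8 in N2, which are of the other series. A difference at a place without the histone mark thus moved with the strains and also with the library series. Its part in the nuclear results was not tested.

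The loci with the largest differences in rank were below the input level in 1 strain. Among the 5 lower loci chosen by rank, III 7359572-7362571 ranked at 24.7, 28.0 and 19.1 in lin-61 met-2 against 90.5, 84.8 and 89.5 in met-2 nrde-3, with levels of -0.73, -0.37 and -0.47 in lin-61 met-2 against 0.74, 0.60 and 0.82 in met-2 nrde-3. I 8687964-8689963 ranked at 19.5, 21.5 and 12.8 in lin-61 met-2 against 85.9, 81.2 and 82.9 in met-2 nrde-3. The others were III 8841565-8844064, II 11297965-11300464 and III 6457076-6459575, with mean rank differences of -63.8, -63.4 and -62.4. Their N2 ranks were 14.5 to 32.1. Of the 5 higher loci, 2 were those on II and I named above, and III 12197551-12199050 ranked at 87.6 in lin-61 met-2 against 25.0 in met-2 nrde-3. The other two, V 19837891-19839390 and V 7345945-7347944, were at 74.2 and 72.5 in lin-61 met-2, against 12.1 and 11.8 in met-2 nrde-3, and neither passed by ranks with the libraries labelled nrde-3 input (median adjusted p = 0.0844 and 0.626, limma).

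The strongest windows of the strains overlapped in part. Of the 9257 windows in the top 5% by mean percentile rank over the preparations of a strain, 5802 (62.7%) were shared between the strains. In lin-61 met-2, 52.1% of the set lay in autosome arms, 27.8% in centres and 20.1% on X, and in met-2 nrde-3 40.1%, 48.0% and 11.9%. Of all tested windows 53.7% lay in arms, 28.2% in centres and 18.1% on X, so the lin-61 met-2 set was spread about as the tested windows were. The single preparations did not overlap in any of these shares: centres held 26.5% to 29.0% of the top windows in lin-61 met-2 against 47.0% to 48.8% in met-2 nrde-3. Complete exchange was rare. Only 3 windows, all in arms, were in the top 5% of every lin-61 met-2 preparation and below the median of every met-2 nrde-3 preparation, and 16 windows, 13 of them in centres, showed the reverse.

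Top windows joined into domains that were shorter in lin-61 met-2. A domain was a run of at least 3 top windows, joined across at most 1 other window. Domains held 76.0% of the top set of lin-61 met-2 and 90.4% of that of met-2 nrde-3. Whether noisier ranks broke runs in lin-61 met-2 was not tested. The lin-61 met-2 set formed 1037 domains with a median of 2500 bp, 58 of them 10000 bp or longer, and the met-2 nrde-3 set 978 domains with a median of 3000 bp, 85 of that length. In single preparations, 30, 47 and 44 domains of lin-61 met-2 and 83, 86 and 84 of met-2 nrde-3 were that long. The longest domain of both strains was the same stretch in the centre of II, 24000 bp in lin-61 met-2 at 7728481-7752480 and 39500 bp in met-2 nrde-3 at 7716981-7756480. V held 363 of the domains of lin-61 met-2 and 258 of those of met-2 nrde-3, and X held 196 in lin-61 met-2 against 120 in met-2 nrde-3. The agreement between preparations differed as well, since 56.1% of the top windows of lin-61 met-2 and 85.6% of those of met-2 nrde-3 were in the top 5% of all 3 preparations.

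Windows that ranked low in N2 were lower in lin-61 met-2, in level and in rank, and those that ranked high in N2 were higher in rank. All tested windows were divided into 10 groups of equal size by their rank in N2. In the lowest group the mean level was -0.205, -0.166 and -0.174 in lin-61 met-2 against 0.050, 0.056 and 0.086 in met-2 nrde-3. In the highest it was 0.487, 0.485 and 0.570 in lin-61 met-2 against 0.441, 0.366 and 0.508 in met-2 nrde-3, with overlap between the strains. In mean percentile rank the lowest group stood at 39.5 in lin-61 met-2 against 48.9 in met-2 nrde-3, and the highest at 72.8 in lin-61 met-2 against 63.5 in met-2 nrde-3. The mean level of lin-61 met-2 was higher at each step in N2 rank, whereas in met-2 nrde-3 the first 8 groups lay between 0.064 and 0.089 in mean level.

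**Figure D5:**
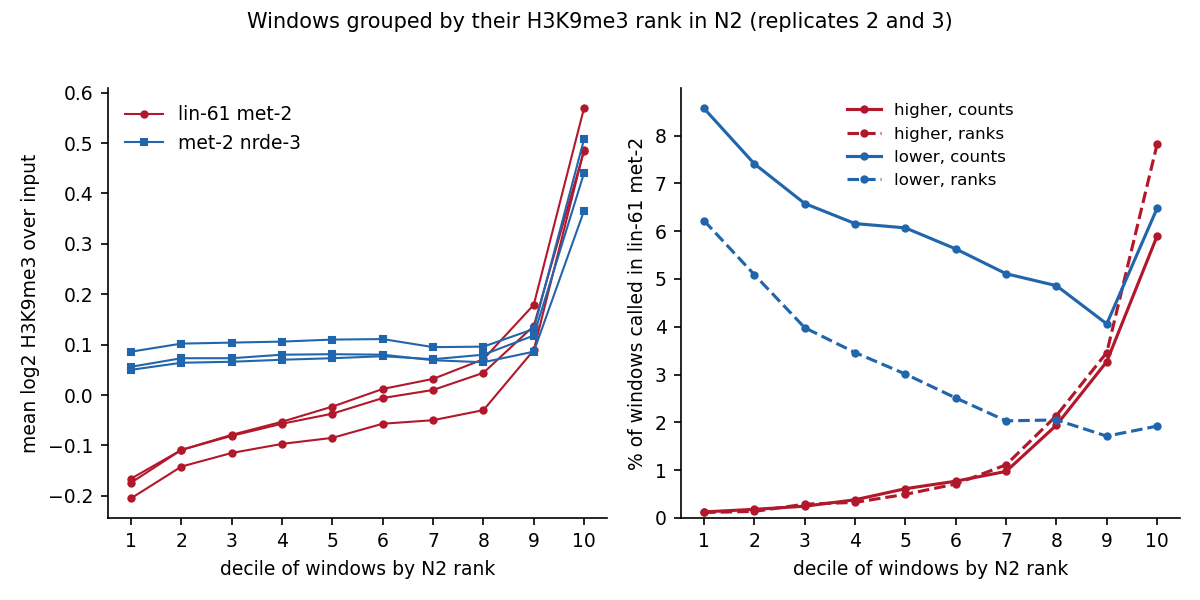
Left, mean log2 level of H3K9me3 over input in 10 groups of windows ordered by N2 rank, with 1 line per preparation. Right, the share of windows in each group called higher or lower in lin-61 met-2 than in met-2 nrde-3 by edgeR on counts (solid) and by limma on ranks (dashed); higher calls reach 5.9% and 7.82% in the highest group, and lower calls 8.57% and 6.22% in the lowest. In the highest group lower calls are 6.48% by edgeR, more than the higher ones, and 1.92% by ranks.

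Higher calls lay mostly in windows that ranked high in N2, while lower calls were found at all N2 ranks. The windows higher in lin-61 met-2 by edgeR had a median N2 rank of 86.4, and 41.0% of them were in the top 10% of N2. The lower windows had a median N2 rank of 40.1, 57.1% of them were below the N2 median, and 10.6% were in the top 10% of N2, about the share of all windows. By ranks the median N2 rank was 88.7 for the higher windows, with 47.1% in the top 10%, and 32 for the lower, with 6.0% in the top 10% and 68.0% below the N2 median. In the single mutants, the higher windows by edgeR had median ranks of 89.1 in lin-61 and 83.7 in nrde-3, and the lower windows 52.2 and 42.9. By median rank, windows higher in lin-61 met-2 were thus strong in N2 and in both single mutants, and windows lower in lin-61 met-2 were near the middle or below it. N2 and nrde-3 belong to the library series of met-2 nrde-3, and lin-61 to that of lin-61 met-2.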

How the data were processed

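The authors deposited a table of raw counts in adjoining windows of 500 bp on the ce10 genome, a build named in the submitters' processing notes. Each library has 1 column, with its sequencing runs combined. The aligner, the counting tool and the handling of duplicates and multiply mapped reads are not given in the sources used here. No gene names were assigned, because the annotation at hand is of another build. The labels do not say whether the preparations came from separate cultures, so p-values measure the spread between preparations, which may be technical. Fragments were amplified and carry no molecular identifiers, so counts overstate independent molecules.

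Windows were kept with at least 20 counts in every input of lin-61 met-2, met-2 nrde-3 and nrde-3 and with mean input levels within 1.5 times between these strains. This removed 15443 windows, 7.7% of the table, and 98.7% of those removed had a lower input level in lin-61 met-2 than in met-2 nrde-3. The windows kept held 97.1% to 97.2% of the input counts of lin-61 met-2 and 87.8% to 88.1% of those labelled met-2 nrde-3. Counts were tested with edgeR 4.0.16 in R 4.3.3, with TMM factors of 0.825 to 1.08 over 12 libraries, by the quasi-likelihood test of the difference between strains of H3K9me3 minus input. Ranks were tested with limma 3.58.1 on normal scores of log2 levels with a pseudocount of 8, and DESeq2 1.42.0 was an alternative. The Benjamini-Hochberg adjustment ran over all 185136 windows. Means over regions were compared by exact permutation tests over preparations. Python 3.11.15 was used for tables and figures. The scripts were tested on simulated data.

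Named loci were the 10 with the largest mean change in each direction and the first of each chromosome, among loci whose preparations did not overlap, and for ranks the 5 with the largest rank difference in each direction. Of these, 12 were higher and 12 lower in lin-61 met-2. The comparison, its lists and its tests were chosen with earlier results of these data known. Replicate numbers were not used to pair libraries of different strains in the main tests. Each level and rank sets an H3K9me3 library against the input of the same number, a pairing assumed from the labels. The main edgeR test does not use this pairing. Windows are not independent replicates.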

Additional observations from a re-analysis of the deposited data

Results flagged for a closer look

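The libraries labelled met-2 nrde-3 input held reads at III 8376067-8377566, a stretch that was nearly empty in every lin-61 met-2 library and in the met-2 nrde-3 H3K9me3 libraries. Their relative depth reached 1.118, against 0.062 to 0.080 in the lin-61 met-2 inputs, which share the met-2 allele by label. Which libraries the inputs belong to was not tested beyond the gaps, and the values with the libraries labelled nrde-3 input stand beside the main ones.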

How the results depend on the processing

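Strain and library series cannot be told apart, and the mean level of the arms and X has no stable sign. The centres were lower in lin-61 met-2 under every alternative run, from -0.08 with library totals to -0.277 without met-2 nrde-3 replicate 2. On the arms the difference was 0.122 with library totals, 0.063 after quantile normalization and 3.586 in percentile rank. On X it was 0.174, 0.082 and 3.606 in the same order, 0.009 with no filter, 0.001 with thinned counts, 0.001 without lin-61 met-2 replicate 1 and 0.003 without met-2 nrde-3 replicate 3, within a range of -0.013 to 0.003 without 1 preparation. The cause was not tested.

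Calls numbered 8992 by ranks, 6409 at an adjusted p of 0.01 and 8523 with nrde-3 inputs 2 and 3, and 5932 to 18052 without 1 preparation. Higher windows numbered 10729 with library totals, 4590 with DESeq2's Wald test, 7174 without inputs, 535 at 0.01, 965 with nrde-3 inputs 2 and 3, and 541 to 4187 without 1 preparation. Lower windows numbered 6443 after quantile normalization, 5919 by ranks, 6599 of 46551 windows of 2000 bp, 5874 at 0.01, and 5391 to 13865 without 1 preparation. Calls by ranks numbered 3187 to 10585 without 1 preparation. Fewer calls at 0.01 follow from a stricter threshold. With windows of 2000 bp, 9669 of 46551 were called, 3070 higher and 6599 lower. That is a larger share of the tested windows than the 13942 of 185136 called at 500 bp, in both directions.

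With the replicate number as a block edgeR called 13296 windows, with each preparation as a block 12308, and by ranks the block gave 10003. Same-numbered libraries of the strains deviated together at r = -0.01 to 0.093. Same-numbered input and H3K9me3 libraries within a strain deviated together at r = -0.008 to 0.036, so their pairing in the levels is assumed. The measure was no larger for these assumed pairs, so it cannot show whether the numbers pair libraries of different strains. Under the alternatives, 558 values of the named loci kept their call and 18, at 6 loci, lost it. Of the loci chosen by rank, 104 values kept it and 26, at 6 loci, lost it. None of these values changed sign. The loci were chosen on the same libraries, so kept calls and signs are not independent tests.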

Other observations

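A set of 837 windows was in the top 1% of every preparation of both strains. Of these, 55.9% lay in autosome arms, 26.6% in centres and 17.4% on X, close to the 53.7%, 28.2% and 18.1% of all tested windows, and 36.1% were on V, which holds 20.6% of them. Their median level was 2.29 in lin-61 met-2 against 3.52 in met-2 nrde-3, and their median rank in N2 was 94.2. The longest run, I 4058984-4071483, stood at 2.38, 2.15 and 2.45 in lin-61 met-2 against 4.05, 3.68 and 4.42 in met-2 nrde-3 (mean log2 change -1.76, median adjusted p = 0.000454, edgeR). At V 17133903-17143902 the levels were 2.83, 2.66 and 3.08 in lin-61 met-2 against 4.06, 3.59 and 4.42 in met-2 nrde-3, and its N2 rank was 100. At V 4302958-4309957 they were 2.83, 2.46 and 2.81 in lin-61 met-2 against 3.50, 3.16 and 3.78 in met-2 nrde-3, and the median window did not pass (adjusted p = 0.0752, edgeR).

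The correlation of levels between preparations, over windows that share their input libraries within a preparation, was 0.608 to 0.719 within lin-61 met-2, 0.866 to 0.889 within met-2 nrde-3 and 0.529 to 0.658 between the strains at 500 bp. In bins of 10000 bp it was 0.919 to 0.956 within lin-61 met-2, 0.980 to 0.985 within met-2 nrde-3 and 0.724 to 0.752 between them. Of the 15443 windows left out, 2019 had no count in any lin-61 met-2 library, while the median met-2 nrde-3 input count there was 225.7. Over the whole table, single lin-61 met-2 libraries had 2596 to 3250 windows without a count. Libraries of the lin-61 single mutant, of the same library series, had 2386 to 2573. The met-2 nrde-3, nrde-3 and N2 libraries, of the other series, had 8 to 55. Empty windows were thus found across the library series of lin-61 met-2 and not in that strain alone.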
